A study of Homo sapiens with 9 samples.

Results

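The genes described are the metallothioneins MT2A, MT1E, MT1X, MT1F, MT1G and MT1M, the metal-sensing transcription factor MTF1 and the zinc exporter SLC30A1. These 8 genes were chosen by name among the 61311 genes of the count table, and each had its own row in it. The libraries were poly(A) mRNA sequencing of HaCaT, a spontaneously immortalized human keratinocyte line labelled WT and kept in DMEM with fetal bovine serum, so every value comes from a single cell line. CT-treated UVA-irradiated HaCaT cells received UVA at 5 J/cm2 followed by an extract of the plant Coreopsis tinctoria (CT). UVA-irradiated HaCaT cells received UVA at 5 J/cm2 without the extract, and control HaCaT cells received neither. Each group had 3 libraries. No library came from cells given the extract without UVA, and the time of harvest after irradiation is not given in the sources used here.

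Metallothioneins are small cytosolic proteins rich in cysteine whose thiolates bind zinc and copper and react with oxidants. MTF1 is a zinc-finger protein that, when free zinc rises, binds short promoter sequences called metal response elements and activates the metallothionein genes and SLC30A1. SLC30A1, also called ZnT1, carries zinc out across the plasma membrane, and in skin zinc is needed for the growth and differentiation of keratinocytes.

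The metallothionein members lie in a cluster on chromosome 16 (GENCODE release 29, GRCh38), and their coding exons are near copies of each other. In that annotation MT2A occupies chr16:56608199-56609497, MT1E chr16:56625475-56627112, MT1M chr16:56632233-56633986, MT1F chr16:56657694-56660698 and MT1X chr16:56682424-56684196, all on the plus strand. MT1G occupies chr16:56666731-56668065 on the minus strand. MTF1 (chr1:37809567-37859620) and SLC30A1 (chr1:211571568-211578742) are on the minus strand of chromosome 1. The coding sequence of every metallothionein member had 186 bases, stop codon included, of which 20 codons encode cysteine. The coding sequences of the 4 metallothioneins with counts are shown because they decide how well reads can be told apart. They run 5′ to 3′, and capitals mark bases that differ from MT2A.
MT2A: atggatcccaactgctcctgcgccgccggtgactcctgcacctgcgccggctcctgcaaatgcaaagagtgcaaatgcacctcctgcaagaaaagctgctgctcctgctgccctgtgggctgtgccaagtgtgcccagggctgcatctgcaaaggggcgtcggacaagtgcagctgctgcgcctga
MT1E: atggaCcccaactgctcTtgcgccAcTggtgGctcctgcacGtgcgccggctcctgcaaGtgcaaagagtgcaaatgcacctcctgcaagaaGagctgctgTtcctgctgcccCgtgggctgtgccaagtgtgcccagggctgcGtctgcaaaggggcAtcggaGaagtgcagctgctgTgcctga
MT1X: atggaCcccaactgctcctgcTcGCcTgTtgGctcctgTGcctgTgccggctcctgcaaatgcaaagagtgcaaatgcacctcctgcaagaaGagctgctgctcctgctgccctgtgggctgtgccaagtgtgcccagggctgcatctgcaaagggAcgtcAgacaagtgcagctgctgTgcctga
MT1F: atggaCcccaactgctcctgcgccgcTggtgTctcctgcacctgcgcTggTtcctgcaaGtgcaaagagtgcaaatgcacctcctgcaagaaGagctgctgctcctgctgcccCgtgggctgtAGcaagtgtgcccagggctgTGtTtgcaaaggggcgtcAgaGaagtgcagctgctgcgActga
MT1E and MT1X each differed from MT2A at 14 bases (92.5% identity) and MT1F at 16 bases (91.4%). Of the members without counts, MT1G was closer to MT2A, at 9 bases (95.2%), and MT1M was further from it, at 19 bases (89.8%).

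Shared sequence limits these rows unequally. Of all windows of 50 bases in the spliced transcript, 51% in MT1X also occurred in the transcript of another gene, against 10.2% in MT2A, 10% in MT1E and 6.12% in MT1F. The share was 20.2% in MT1G and 14.6% in MT1M. With windows of 100 bases, 22% of those in MT1X remained shared, all with the long noncoding RNA AC026461.1, which overlaps MT1X on the same strand. No window of 100 bases was shared in the other metallothionein members. The row of AC026461.1 held 0 counts in all 9 libraries. How the authors' counting treated reads that match several genes is not given in the sources used here, so MT1X is the least certain of the rows. No shared window was found in SLC30A1, and 0.896% of the windows of 50 bases were shared in MTF1, whose transcript is far longer.

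Promoter windows from RefSeq (GRCh38.p14), 250 bases before to 50 bases after the annotated start, were matched for 4 of the 8 members: MT2A, MT1X, MTF1 and SLC30A1. MT1E, MT1F, MT1G and MT1M had no entry. The RefSeq starts of MT2A, MT1X and MTF1 lie inside the GENCODE bounds of these genes. The whole SLC30A1 window lies upstream of the GENCODE bounds of SLC30A1, so its matches stand outside the gene as GENCODE draws it. The windows were searched on both strands for the core of the metal response element, written as TGCACNC or TGCGCNC. The 3 windows with a match are shown 5′ to 3′ on the strand of the gene, with each match in capitals. They are chr16:56608334-56608633 (plus strand) for MT2A, chr16:56682220-56682519 (plus strand) for MT1X and chr1:211579112-211579411 (minus strand) for SLC30A1.
MT2A promoter: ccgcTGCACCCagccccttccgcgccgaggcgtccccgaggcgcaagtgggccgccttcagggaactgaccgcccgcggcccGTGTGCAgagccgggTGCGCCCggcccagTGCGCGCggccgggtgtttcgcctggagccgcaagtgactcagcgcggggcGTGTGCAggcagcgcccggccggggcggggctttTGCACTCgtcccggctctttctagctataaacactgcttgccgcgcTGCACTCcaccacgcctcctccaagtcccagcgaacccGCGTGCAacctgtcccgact
MT1X promoter: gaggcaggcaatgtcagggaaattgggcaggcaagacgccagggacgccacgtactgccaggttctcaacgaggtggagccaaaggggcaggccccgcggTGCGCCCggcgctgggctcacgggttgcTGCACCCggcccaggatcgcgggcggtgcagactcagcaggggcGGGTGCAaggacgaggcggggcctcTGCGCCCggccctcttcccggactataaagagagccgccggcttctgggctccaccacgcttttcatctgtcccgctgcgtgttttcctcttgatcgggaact
SLC30A1 promoter: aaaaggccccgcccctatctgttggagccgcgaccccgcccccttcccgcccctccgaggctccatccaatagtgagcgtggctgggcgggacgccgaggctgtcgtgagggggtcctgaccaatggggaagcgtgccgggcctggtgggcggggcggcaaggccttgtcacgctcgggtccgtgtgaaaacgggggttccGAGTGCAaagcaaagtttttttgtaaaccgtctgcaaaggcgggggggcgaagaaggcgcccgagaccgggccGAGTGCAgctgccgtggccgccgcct
MT2A held 8 matches, MT1X 4, SLC30A1 2 and MTF1 0. Among all 35116 windows of the same length, at least 1 match was present in 29.6%, at least 2 in 8.6%, at least 4 in 0.601% and at least 8 in 0.0199%. The antioxidant response element, the binding sequence of NRF2, was searched as TGACNNNGC on both strands, a form that the AP-1 sequence TGACTCA can also fill when GC follows it. It matched once in each of the MT2A, MT1X and SLC30A1 windows and not in that of MTF1, against 13.3% of all windows with a match. The MT2A match holds this AP-1 sequence. No match overlapped a metal response element. A match describes letters only and is not evidence of binding.

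**Figure D1:**
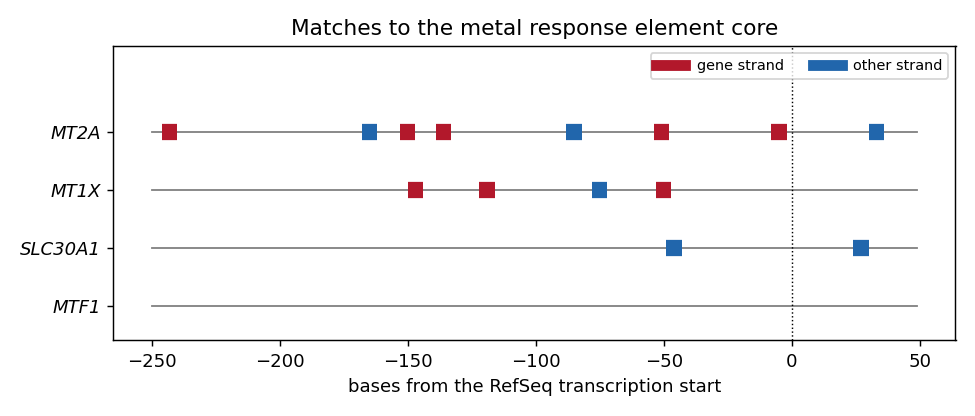
Matches to the metal response element core in the RefSeq promoter windows of MT2A, MT1X, SLC30A1 and MTF1. The horizontal axis gives bases from the annotated transcription start at 0, and each block is a match on the strand of the gene (red) or the other strand (blue). MT2A holds 8 blocks, MT1X 4, SLC30A1 2 and MTF1 none.

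Library totals were 20129928 to 21971215 counts in CT-treated UVA-irradiated, 16390289 to 19527286 in UVA-irradiated and 17053246 to 19324311 in control HaCaT cells. Levels below are CPM, that is, counts brought to a common library size after TMM scaling. As a check of the cell type, all 12 keratinocyte markers on the list used were tested. Together they had 114369 to 128481 counts per library in CT-treated UVA-irradiated, 91133 to 118557 in UVA-irradiated and 131778 to 137577 in control cells. Of them, 10 were called lower in UVA-irradiated than in control cells, where 21.1% of all tested genes were called in either direction. In CT-treated UVA-irradiated against control cells 7 were called lower, where 29.8% of all tested genes were called in either direction. The 8 fibroblast markers had 67 to 73 counts per library in CT-treated UVA-irradiated, 52 to 56 in UVA-irradiated and 112 to 136 in control cells, and melanocyte, leukocyte and endothelial markers had 86 to 356 counts per library, of which the leukocyte counts were nearly all CD68. The part of these marker shifts in the results on zinc genes was not tested.

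HaCaT cells carried most metallothionein mRNA as MT2A and MT1E. Per kilobase of spliced transcript, MT2A had 255.6 ± 20.4 CPM in CT-treated UVA-irradiated, 283.7 ± 17.2 in UVA-irradiated and 252.4 ± 20.2 in control cells (SD, n = 3 each). On the same scale MT1E had 154.2 ± 15.3 CPM per kilobase in CT-treated, 157.4 ± 14.3 in UVA-irradiated and 152.5 ± 8.95 in control cells. MT1X had 54.3 ± 2.49 in CT-treated, 53.0 ± 5.94 in UVA-irradiated and 71.3 ± 5.20 in control cells, so the metallothioneins with counts differed widely in level. SLC30A1 followed with 10.7 ± 0.536 CPM per kilobase in CT-treated, 11.6 ± 1.002 in UVA-irradiated and 7.55 ± 0.460 in control cells. MTF1 had 4.54 ± 0.186 in CT-treated, 4.14 ± 0.227 in UVA-irradiated and 3.78 ± 0.268 in control cells, and MT1F had 1.73 ± 0.517 in CT-treated, 2.23 ± 0.284 in UVA-irradiated and 2.96 ± 0.699 in control cells. This order held in the group means of all 3 groups. The ranges of neighbours in the order did not overlap within any group. For each metallothionein the length is that of 1 annotated coding transcript, restricted to the RefSeq gene bounds. For MTF1 (7972 bases) and SLC30A1 (5474 bases) it is that of the longest annotated transcript, without this restriction. The order of genes whose lengths were set by different rules depends on this choice.

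MT1G and MT1M had 0 counts in every library, which at 3 counts allows up to 0.140 to 0.183 CPM per library from counting error alone. Any loss of reads that match several genes is not covered by this limit. The 6 other metallothionein genes in the table and its 9 metallothionein pseudogenes were also at 0 in all 9 libraries. Of 21 rows of the metallothionein family, only MT2A, MT1E, MT1X and MT1F held any count. The 6 members with counts passed the filter on low counts and were tested among 15154 genes with edgeR's quasi-likelihood test.

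**Figure D2:**
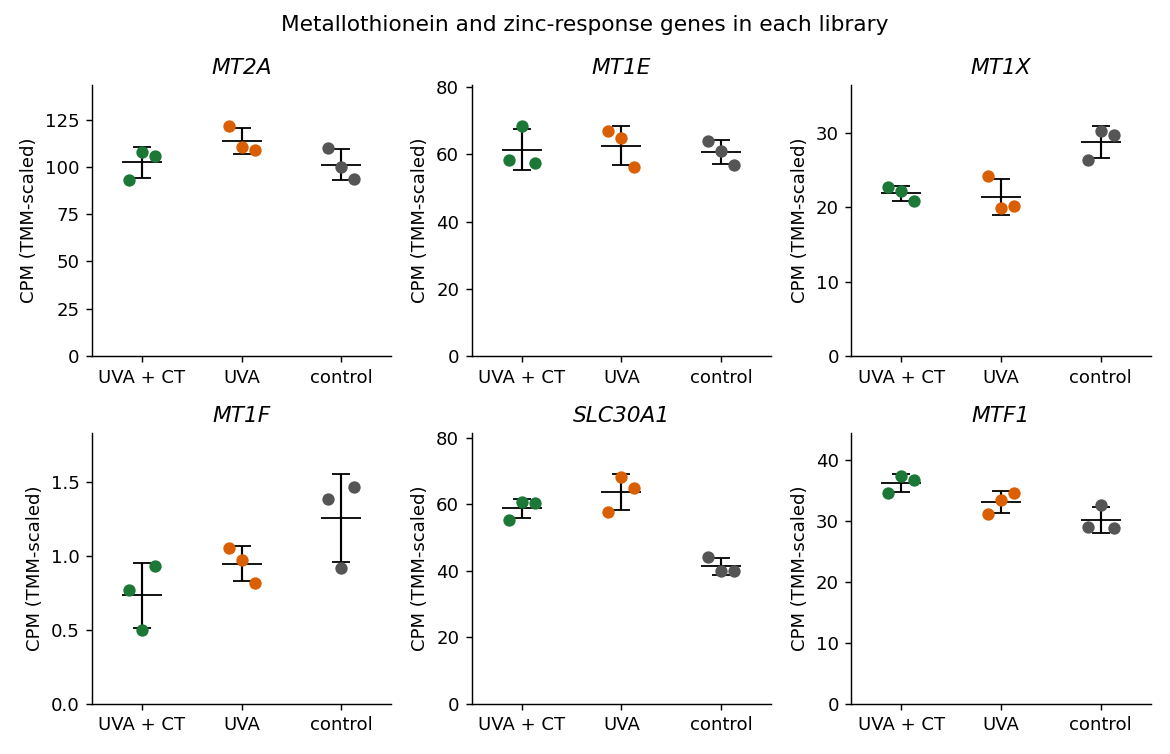
CPM of the 6 tested genes in each library (dots), with group mean and SD (black bars, n = 3), for CT-treated UVA-irradiated (UVA + CT), UVA-irradiated (UVA) and control HaCaT cells. SLC30A1 lies between 55.4 and 68.3 CPM in all 6 irradiated libraries and at most at 44.2 CPM in controls, while MT1X is lower in the irradiated libraries.

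The response to UVA was examined by comparing UVA-irradiated with control cells. SLC30A1 was higher and MT1X lower, while MT2A, MT1E, MT1F and MTF1 did not pass the threshold of an adjusted p under 0.05. Thus 2 of 6 tested members were called, against 21.1% of all tested genes. In bulk RNA, fewer cells expressing a gene and less RNA per cell cannot be told apart.

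The exporter SLC30A1 had 57.6, 68.3 and 64.8 CPM in the UVA-irradiated libraries, against 44.2, 39.8 and 40.0 CPM in the control libraries. Every irradiated library lay above every control library, and 38% of all tested genes had no overlap between these groups. The log2 fold change was 0.62 (SE 0.07, 95% interval 0.48 to 0.76, adjusted p = 5.94e-06), a fold of 1.54. No other tested member differed as much in this comparison.

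MT1X, a metallothionein induced by metals in many human cells, had 24.2, 19.8 and 20.2 CPM in UVA-irradiated libraries, against 26.4, 30.2 and 29.8 CPM in control libraries. The groups did not overlap, which held for 38% of all tested genes. The log2 fold change was -0.43 (SE 0.09, 95% interval -0.61 to -0.24, adjusted p = 0.00173).

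MT2A, the most abundant member, had 122, 111 and 109 CPM in UVA-irradiated libraries, against 110, 99.8 and 93.9 CPM in control libraries. The groups overlapped, since the first control library exceeded the third irradiated library. The log2 fold change of 0.17 (SE 0.07) did not pass (adjusted p = 0.0909). It passed without control library 1 (adjusted p = 0.0139), without CT-treated library 1 (0.0408), in a fit of the compared groups only (0.0473) and without the filter on low counts (0.0142), within a range of 0.0139 to 0.291 over 18 alternatives.

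MT1E, the second most abundant metallothionein, had 67.0, 64.8 and 56.2 CPM in UVA-irradiated libraries and 64.1, 61.0 and 57.0 CPM in control libraries. These groups overlapped throughout, and the log2 fold change was 0.04 (95% interval -0.12 to 0.21, adjusted p = 0.753). MTF1, the sensor, had 31.1, 33.4 and 34.6 CPM in UVA-irradiated libraries and 28.96, 32.6 and 28.9 CPM in control libraries, with a log2 fold change of 0.13 (95% interval -0.02 to 0.28, adjusted p = 0.219). MT1F was at the limit of what these depths resolve, with 19, 16 and 16 counts in UVA-irradiated libraries and 27, 17 and 25 counts in control libraries, and its interval ran from -1.16 to 0.34 on the log2 scale (adjusted p = 0.472).

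Addition of the extract was examined by comparing CT-treated UVA-irradiated with UVA-irradiated cells. None of the 6 tested members was called by edgeR's quasi-likelihood test, DESeq2 or limma-voom, in a comparison that called 1.56% of all tested genes. At an unadjusted p under 0.05, edgeR's test passed 1 member, MT2A, which was lower. MT2A had 93.1, 108 and 106 CPM in CT-treated libraries, against 122, 111 and 109 CPM in UVA-irradiated libraries. All 3 CT-treated libraries lay below the UVA-irradiated libraries, by a small margin for the nearest pair, and 18.8% of all tested genes were separated in this way. The log2 fold change was -0.15 (SE 0.07, 95% interval -0.29 to -0.01, adjusted p = 0.341 by edgeR's quasi-likelihood test).

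SLC30A1 had 55.4, 60.5 and 60.3 CPM in CT-treated libraries, against 57.6, 68.3 and 64.8 CPM in UVA-irradiated libraries. These groups overlapped, and the log2 fold change of -0.11 had a 95% interval of -0.25 to 0.03 (adjusted p = 0.495). For MT1X the libraries had 22.8, 22.2 and 20.8 CPM with CT, against 24.2, 19.8 and 20.2 CPM without it, and the interval of its log2 fold change of 0.03 was -0.15 to 0.22. The groups again overlapped, so the lower MT1X level of irradiated cells was seen with and without the extract. MTF1 had 34.5, 37.3 and 36.7 CPM in CT-treated and 31.1, 33.4 and 34.6 CPM in UVA-irradiated libraries, with an interval of -0.02 to 0.28. MT1E had 58.2, 68.4 and 57.5 CPM in CT-treated and 67.0, 64.8 and 56.2 CPM in UVA-irradiated libraries, with an interval of -0.19 to 0.13. MT1F had 16, 10 and 20 counts in CT-treated and 19, 16 and 16 counts in UVA-irradiated libraries, with an interval of -1.14 to 0.42. An unadjusted 95% interval bounds each of these differences. A miss of the threshold does not show that the extract left a gene as it was.

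CT-treated UVA-irradiated cells were also compared with control cells, in a comparison that shares its libraries with both others. SLC30A1 and MTF1 were higher and MT1X was lower, so that 3 of 6 tested members were called, against 29.8% of all tested genes. SLC30A1 averaged 58.7 ± 2.93 CPM in CT-treated UVA-irradiated and 41.3 ± 2.52 CPM in control cells (SD, n = 3 each), a log2 fold change of 0.51 (SE 0.07, adjusted p = 2.02e-05 by edgeR's quasi-likelihood test). MT1X averaged 21.9 ± 1.005 CPM in CT-treated UVA-irradiated and 28.8 ± 2.10 CPM in control cells, a log2 fold change of -0.39 (SE 0.09, adjusted p = 0.00177 by the same edgeR test). Neither gene overlapped between these groups, as was the case for 43% of all tested genes.

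MTF1 averaged 36.2 ± 1.48 CPM in CT-treated UVA-irradiated and 30.1 ± 2.14 CPM in control cells (SD, n = 3 each). Its lowest CT-treated library, at 34.5 CPM, lay above its highest control library, at 32.6 CPM. For 43% of all tested genes these groups did not overlap. The log2 fold change was 0.26 (SE 0.07, 95% interval 0.11 to 0.41, adjusted p = 0.00861). UVA-irradiated cells, at 33.0 ± 1.81 CPM, lay between the other groups and overlapped with both.

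MT2A averaged 102.5 ± 8.19 CPM in CT-treated UVA-irradiated and 101.2 ± 8.11 CPM in control cells (SD, n = 3 each), and MT1E averaged 61.4 ± 6.09 CPM in CT-treated UVA-irradiated and 60.7 ± 3.56 CPM in control cells. Both differences were within the spread between libraries, with 95% intervals of -0.13 to 0.16 and -0.15 to 0.18 on the log2 scale. MT1F gave a log2 fold change of -0.77 on 10 to 27 counts per library (95% interval -1.53 to -0.01, adjusted p = 0.119). The calls for SLC30A1 and MT1X against control and for MTF1 in CT-treated against control cells were kept under all 18 alternative settings, which included leaving out each library in turn, DESeq2 and limma-voom. None of these 3 genes reached the 2-fold change of the study's thresholds.

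**Figure D3:**
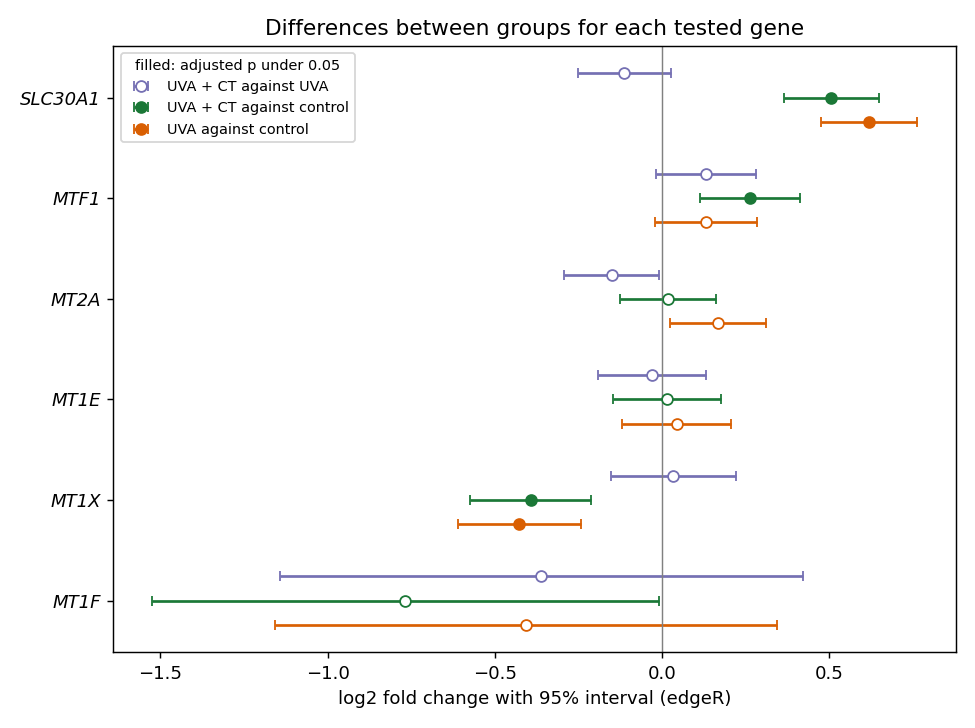
Log2 fold changes of the 6 tested genes with 95% intervals from edgeR, for CT-treated UVA-irradiated against UVA-irradiated (purple), CT-treated UVA-irradiated against control (green) and UVA-irradiated against control cells (orange). Filled dots passed an adjusted p under 0.05: SLC30A1 at 0.51 and 0.62 and MT1X at -0.39 and -0.43 against control, and MTF1 at 0.26 in CT-treated against control cells.

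The summed metallothionein level did not separate the groups. It was 174.9, 199 and 185 CPM in CT-treated UVA-irradiated, 214, 196 and 186 CPM in UVA-irradiated, and 202, 192 and 182 CPM in control libraries. Its makeup was read as the share of each gene, with MT1X the least certain row. MT1X contributed 11.1 to 13.02% of the metallothionein counts in CT-treated UVA-irradiated, 10.1 to 11.3% in UVA-irradiated and 13.1 to 16.4% in control libraries. MT2A contributed 53.2 to 57.3% in CT-treated UVA-irradiated, 56.4 to 58.5% in UVA-irradiated and 51.5 to 54.5% in control libraries, MT1E 30.2 to 34.3% in every library and MT1F less than 1%.

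The ratio of MT1X to MT2A counts does not depend on library scaling. It was 0.199, 0.179 and 0.186 in UVA-irradiated libraries, against 0.240, 0.303 and 0.317 in control libraries, with no overlap. An exact two-sided permutation test gave p = 0.1, the smallest that 3 against 3 libraries allow. CT-treated UVA-irradiated libraries had 0.245, 0.205 and 0.196, which overlapped with the control libraries (exact permutation p = 0.2) and with the UVA-irradiated libraries (exact permutation p = 0.2). The ratio of MT1X to MT1E, likewise free of library scaling, was 0.391, 0.324 and 0.362 in CT-treated UVA-irradiated, 0.361, 0.306 and 0.359 in UVA-irradiated and 0.412, 0.496 and 0.523 in control libraries. On this measure both irradiated groups lay below the control libraries without overlap (exact permutation p = 0.1 for each, the smallest possible), and the CT-treated libraries overlapped with the UVA-irradiated libraries (exact permutation p = 0.5). The ratio of MT1E to MT2A was 0.542 to 0.632 in CT-treated UVA-irradiated, 0.516 to 0.584 in UVA-irradiated and 0.583 to 0.611 in control libraries, and these ranges overlapped.

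**Figure D4:**
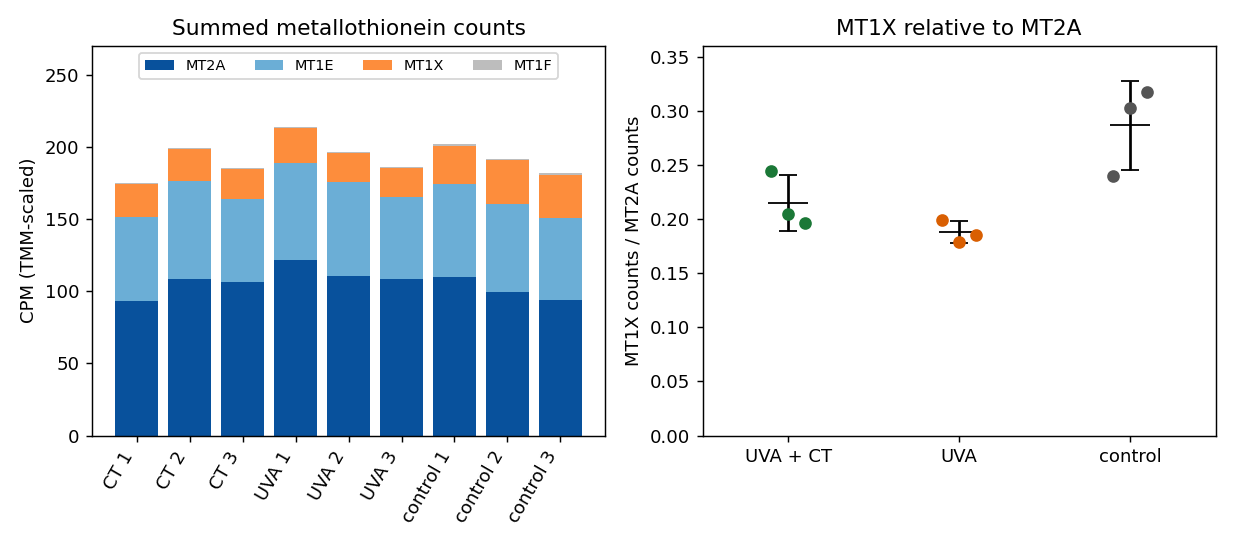
Left, summed CPM of the metallothionein genes in each library, stacked by gene. Right, the ratio of MT1X to MT2A counts in each library (dots) with group mean and SD (bars, n = 3). The sums overlap between groups at 174.9 to 214 CPM, and the ratio is 0.179 to 0.199 in UVA-irradiated and 0.240 to 0.317 in control libraries.

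Other zinc transporters were read from lists by family. The SLC30A family exports zinc or loads it into vesicles. Of its other 9 genes, 5 were tested, and edgeR, DESeq2 and limma-voom called none of them in any comparison. At an unadjusted p under 0.05, edgeR's test passed 3 in UVA-irradiated against control cells (SLC30A7 at 0.14, SLC30A4 at -0.62 and SLC30A6 at -0.13 on the log2 scale, named after their values were seen) and 0 in both comparisons of CT-treated cells. When length and GC content of the transcripts were corrected for, 1 was called higher in UVA-irradiated against control and 1 in CT-treated UVA-irradiated against control cells. SLC30A1 itself was called against control cells with all 3 tools.

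The SLC39A family moves zinc into the cytosol, and 12 of its 14 genes were tested. In UVA-irradiated against control cells 2 rose and 2 fell, against 21.1% of all tested genes called, with a median log2 fold change of 0.02 beside 0.00 for all tested genes. SLC39A14, an importer of zinc, iron and manganese, had 89.1 ± 3.79 CPM in UVA-irradiated and 70.5 ± 3.56 CPM in control cells (SD, n = 3 each), a log2 fold change of 0.34. SLC39A6, a plasma membrane importer, changed by 0.16, SLC39A7, which releases zinc from the endoplasmic reticulum, by -0.16, and SLC39A2, another plasma membrane importer, by -1.63 on 11 to 69 counts per library. SLC39A6 lost its call without control library 2 (adjusted p = 0.0801) or UVA library 3 (0.0582), and SLC39A7 without control library 3 (0.0649), UVA library 1 (0.0535) or UVA library 3 (0.0598). SLC39A7 fell outside the rule for naming genes and was named after its value was seen.

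With the extract added to irradiated cells, the median log2 fold change of the 12 importers was 0.07. Of them, 1 rose and 0 fell, against 1.56% of all tested genes called. That gene was SLC39A10, a plasma membrane importer, which was named after its value was seen. It had 38.5 ± 6.67 CPM in CT-treated UVA-irradiated and 28.8 ± 0.991 CPM in UVA-irradiated cells (SD, n = 3 each), a log2 fold change of 0.42 (SE 0.10, adjusted p = 0.0452 by edgeR's quasi-likelihood test). The call was lost in limma-voom (0.0691) and on leaving out control library 2 (0.0588), control library 3 (0.0534), UVA library 1 (0.174), 2 (0.187) or 3 (0.129), or CT library 3, without which the log2 fold change was 0.26 (adjusted p = 0.167).

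In CT-treated UVA-irradiated against control cells 5 importers rose and 1 fell, against 29.8% of all tested genes called, and the median log2 fold change was 0.17. SLC39A6 rose by 0.29, SLC39A14 by 0.38 and SLC39A13, an importer of the Golgi and intracellular vesicles, by 0.61 on the log2 scale, while SLC39A2 fell by 2.01. The 2 others were SLC39A10 at 0.43 and SLC39A4, the importer mutated in acrodermatitis enteropathica, at 0.54, both named after their values were seen. The call of SLC39A4 was lost without control library 2 (adjusted p = 0.144) or 3 (0.0826), or without CT library 2 (0.137) or 3 (0.0586). In this comparison SLC39A6 had 163.5 ± 2.00 CPM in CT-treated UVA-irradiated and 133.4 ± 4.95 CPM in control cells (SD, n = 3 each).

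**Figure D5:**
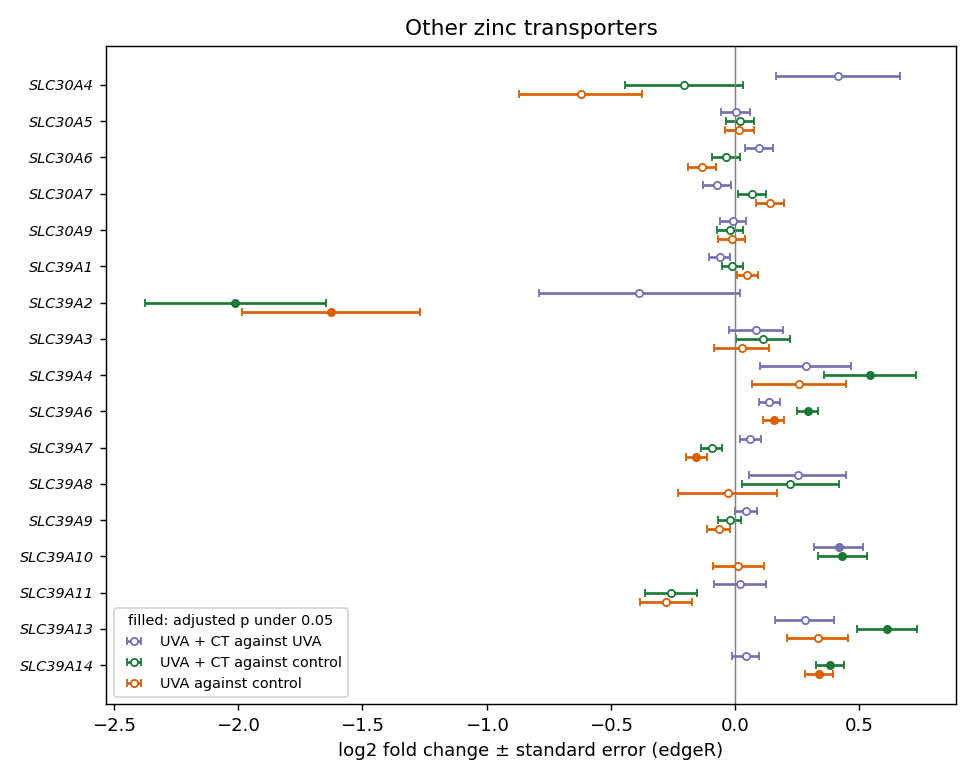
Log2 fold changes with standard errors from edgeR for the 5 tested SLC30A genes other than SLC30A1 and the 12 tested SLC39A genes, with colours as in the plot of fold changes by gene. Filled dots passed an adjusted p under 0.05, and none of the SLC30A genes is filled.

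Metallothioneins also bind copper. Of 13 genes of copper transport and copper chaperones, all tested, 2 rose and 1 fell in UVA-irradiated against control cells, a share near the 21.1% of all tested genes called. SOD1, the copper and zinc superoxide dismutase, changed by 0.28, MEMO1 by 0.20 and ATP7A, a copper exporter, by -0.45 on the log2 scale. The MEMO1 call was lost in DESeq2 (adjusted p = 0.0594), limma-voom (0.0536) and a fit with the replicate number as a block (0.0708), and on leaving out any of 6 libraries (0.0591 to 0.219). With the extract added to irradiated cells 1 rose and 0 fell, against 1.56% of all tested genes called. The gene was COX17, a copper chaperone of mitochondria. It averaged 30.4 ± 2.45 CPM in CT-treated UVA-irradiated and 23.5 ± 0.774 CPM in UVA-irradiated cells (SD, n = 3 each). Its log2 fold change was 0.37 (adjusted p = 0.0132 by edgeR's quasi-likelihood test), and the call was lost without UVA library 1 (0.0871), UVA library 2 (0.0699) or CT library 3 (0.101). In CT-treated UVA-irradiated against control cells, where 29.8% of all tested genes were called, 5 rose, among them SOD1 at 0.43, MEMO1 at 0.36 and COX17 at 0.32, and ATP7A fell by 0.46. The 2 others were COX11 at 0.19 and SCO1 at 0.15, both copper chaperones of cytochrome c oxidase and named after their values were seen. The COX11 call was lost without control library 3 (adjusted p = 0.148), CT library 2 (0.122) or CT library 3 (0.0528). The SCO1 call was lost in DESeq2 (0.0702), limma-voom (0.0504), a fit with the replicate number as a block (0.0740), scaling by library size only (0.0652) and a fit of the compared groups only (0.0730), and on leaving out any of 7 libraries (0.0506 to 0.227).

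The NRF2 list was read beside the metallothioneins because the searched form of the antioxidant response element matched in the MT2A and MT1X windows. The MT2A match holds the AP-1 sequence as well. In CT-treated UVA-irradiated against UVA-irradiated cells 11 of its 16 genes rose and 0 fell, with a median log2 fold change of 0.43. Of all tested genes, 1.56% were called there. In the same comparison the 4 tested metallothioneins had a median log2 fold change of -0.09, and 0 of them were called by edgeR, DESeq2 or limma-voom. The difference between the lists was not tested. SLC30A1, whose window also matched, was not called in that comparison (log2 fold change -0.11, adjusted p = 0.495 by edgeR's quasi-likelihood test). MT1E and MT1F had no window to search. The NRF2 genes also moved without the extract. Among the 16, 7 rose and 2 fell in UVA-irradiated against control cells, where 21.1% of all tested genes were called. Against control cells, CT-treated UVA-irradiated cells had 13 higher and 0 lower, where 29.8% of all tested genes were called.

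The genes whose log2 CPM followed a member most closely over the 9 libraries were searched among 11162 tested genes with an average of at least 2 log2 CPM. For SLC30A1 they were SAV1, a scaffold of Hippo signalling, at Pearson's r = 0.988, then TGFBR2, RBM27, OAT and HNRNPA1P33 (0.987 to 0.982). SAV1 had 77.8 ± 7.95 CPM in CT-treated UVA-irradiated, 85.7 ± 5.49 in UVA-irradiated and 50.3 ± 3.35 in control cells (SD, n = 3 each), so it was high in both irradiated groups, like SLC30A1. For MT1X the closest was NOTCH1, a receptor of keratinocyte differentiation, at 0.985, then AGRN, AP2M1, AP2B1 and PAK6 (0.981 to 0.979). NOTCH1 had 91.3 ± 5.95 CPM in CT-treated UVA-irradiated, 91.8 ± 10.1 in UVA-irradiated and 144 ± 18.5 in control cells, so it was low in both irradiated groups. For MT2A the closest was GADD45GIP1, a mitochondrial ribosome protein, at 0.9749, then CACNB1, USP42, SPRY1 and NMT2 (0.945 to 0.880), and for the metallothionein sum it was SNRNP200 at 0.940. These coefficients describe libraries that share group differences and scaling. The genes were picked as the highest of each search, so their likeness to a member follows from that choice. It is no separate result.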

How the data were processed

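The deposited table holds whole-number counts per gene, which the authors left without normalization. Of the tools behind it, the submitters listed bcl2fastq, fastp 0.23.2 and the build GRCh38 in their processing notes. The sources used here do not give the aligner, counting program, annotation, read length or strand setting. Libraries were grouped by label. The labels name no separate cultures, so the spread behind each p-value is that between these libraries and may be technical. Genes passing filterByExpr were scaled by TMM and tested over all 9 libraries with edgeR 4.0.16 (quasi-likelihood, robust, R 4.3.3), with Benjamini-Hochberg adjustment over 15154 genes. Standard errors were derived from the F statistic. Alternatives used DESeq2 1.42.0, limma-voom 3.58.1, other scalings and filters, a replicate block and left-out libraries. Scripts were tested on simulated data, with changes placed in genes drawn at random from those tested. Over the comparisons, 38 to 48% of 1.25-fold changes and 62 to 80% of 1.5-fold changes were recovered. Small changes can thus be missed. Shared windows and positions came from GENCODE release 29 and promoters from RefSeq. All 8 members were described. Of each other list, up to 4 genes with the smallest adjusted p among those called were eligible to be named, and the 5 genes most correlated with a member. The members and lists were chosen with earlier results of these data known.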

Additional observations from a re-analysis of the deposited data

How the results depend on the processing

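The 5 calls of SLC30A1, MT1X and MTF1 kept direction and threshold in all 18 alternatives. Of 324 values of tested members under alternatives 306 did so, 4 gained a call (MT2A in UVA against control) and 14 changed sign, none of them called. On leaving out a library, MT1E gave -0.0074 to 0.12 in UVA against control, -0.12 to 0.020 in CT against UVA and -0.072 to 0.060 in CT against control. MT2A gave -0.036 to 0.083 in CT against control and MT1X -0.018 to 0.13 in CT against UVA. In CT against control MT1E gave -0.00052 with library size only, and MT1E gave -0.082 and MT2A -0.056 after a length and GC correction chosen after seeing the data. At the study's thresholds, 334 genes were called in UVA against control, 111 in CT against UVA and 460 in CT against control, among them 0 members, against 3202, 236 and 4517 by adjusted p. CT against UVA called 561 genes with no filter on low counts and 95 to 372 on leaving out a library. Of its calls 60.6% were higher, and 50.2% with library size only. The cause of these shifts was not tested. Replicate numbers gave no sign of pairing the libraries. Residual correlations were -0.05 to 0.03 for the same number and -0.06 to 0.06 for different numbers. With 3 libraries in each group this cannot exclude cultures shared by number. With a replicate block 2 members were called in UVA against control, 0 in CT against UVA and 3 in CT against control, as without it. Depth limits MT1F, with 10 to 27 counts per library.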

Other observations

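Heat shock and glucocorticoid hormones are, besides metals, known inducers of metallothionein genes, and lists of their other targets were read in the same fit. Of 12 heat shock genes, 1 rose and 5 fell in UVA-irradiated against control cells, against 21.1% of all tested genes called, and the largest decrease was that of the chaperone gene HSPA4L, at -0.61 on the log2 scale (adjusted p = 4.81e-06 by edgeR's quasi-likelihood test). HSPA4L averaged 31.4 ± 1.16 CPM in CT-treated UVA-irradiated, 28.1 ± 0.782 in UVA-irradiated and 43.2 ± 2.07 in control cells (SD, n = 3 each). With the extract added to irradiated cells 1 heat shock gene was called in edgeR and 4 in DESeq2, all higher. Of all 15154 tested genes, edgeR called 1.56% and DESeq2 called 309 in this comparison. The gene called by edgeR was HSPA1B, an inducible HSP70 gene whose near-identical copy HSPA1A can share its reads, at 0.26 (adjusted p = 0.0211). Its call was lost without UVA library 1 (0.0677) or 2 (0.0971), or without CT library 1 (0.0578) or 3 (0.116). In CT-treated UVA-irradiated against control cells 3 heat shock genes rose and 4 fell, against 29.8% of all tested genes called.

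Of 10 tested glucocorticoid-responsive genes, 2 rose and 1 fell in UVA-irradiated against control cells, near the 21.1% of all tested genes called. ERRFI1, a feedback inhibitor of the EGF receptor, rose by 0.93 and the clock gene PER1 by 0.34, and CEBPD changed by -0.62 on the log2 scale. The PER1 call was lost without control library 2 (adjusted p = 0.0936), UVA library 1 (0.0880) or UVA library 3 (0.0568), and the CEBPD call without control library 2 (0.0657) or 3 (0.0962) or UVA library 2 (0.0615) or 3 (0.0718). In CT-treated UVA-irradiated against UVA-irradiated cells edgeR, DESeq2 and limma-voom called 0 of these genes, where edgeR called 1.56% of all tested genes. At an unadjusted p under 0.05, edgeR's test passed 2 of them. In CT-treated UVA-irradiated against control cells 3 rose and 0 fell, against 29.8% of all tested genes called. They were ERRFI1 at 0.99, PER1 at 0.30 and ANGPTL4, an inhibitor of lipoprotein lipase, at 1.92 on the log2 scale (adjusted p = 0.00157 by edgeR's quasi-likelihood test). ANGPTL4 rested on few counts, at 38, 29 and 36 in CT-treated UVA-irradiated and 13, 8 and 3 in control libraries. This PER1 call was lost with library size only (adjusted p = 0.0554) and without control library 2 (0.13), CT library 1 (0.0943) or CT library 2 (0.12). DESeq2 called the same number higher and 1 lower.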
